A study of Homo sapiens with 2 samples.

Results

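The genes described here encode inhibitors of cyclin-dependent kinases and the D-type cyclins with their partner kinase CDK6: CDKN1A, CDKN1B, CDKN2A, CDKN2B, CDKN2C, CDKN2D, CCND1, CCND2, CCND3 and CDK6. They were chosen by name, and a listed peak was given to a gene if it overlapped the gene body on hg19 or the 20 kb on either side of it. The rule gave 39 peaks of the 20072 listed on chromosomes 1 to 22 and X (20085 with all contigs), and 8 of the 10 genes had at least 1. No peak was shared between genes. The data come from NB4, an established line of acute promyelocytic leukemia cells in which a translocation fuses PML to the retinoic acid receptor gene RARA. An antibody labelled PML-RARA directed the CUT&Tag reaction, in which an antibody-tethered transposase cuts and tags nearby chromatin, in 2 replicates of cells with no stated treatment that form 1 group. The authors deposited 1 peak list merged from both, so the spread of the replicates is unknown and nothing below was tested. Whether they were separate cultures is not labelled, the depth is unknown, and no control antibody was analysed here.

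Cells pass from G1 into DNA synthesis when D-type cyclins, bound to CDK4 or CDK6, phosphorylate the retinoblastoma protein. INK4 proteins (the CDKN2 genes) bind CDK4 and CDK6 and keep the D-cyclins off, while Cip/Kip proteins (the CDKN1 genes) bind whole cyclin-kinase complexes. In the granulocyte lineage, exit from this cycle goes with maturation, and retinoic acid, which releases PML-RARA cells from their block, arrests them in G1. Whether PML-RARA is bound near these genes is the question that the peaks around them bear on.

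The antibody signal at these genes was concentrated at 2 of them. CDKN2D had 6 peaks with a summed total signal of 435476, and CCND3 had 15 peaks with 544368. Total signal is the authors' value for a peak, read here as coverage summed over its bases. Together these genes held 84.1% of the 1164403 units over all 10, and their strongest peaks alone held 63.2%. CCND2 followed with 60106 in 3 peaks, CDKN1A with 52806 in 4, CDKN1B with 32911 in 4 and CCND1 with 18371 in 4. CDKN2C had 10669 in a single peak and CDK6 had 9696 in 2 peaks. CDKN2A and CDKN2B, which lie next to each other, had no listed peak.

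The promoter sequences of the genes on which these results turn are shown first, so that each can be read against its peak. They are the 250 bases before the start in RefSeq's promoter table (build GRCh38.p14), matched by symbol, printed 5′ to 3′ along the gene. Capitals mark GGGCGG (the GC box bound by SP1), GAGGAA (a core of PU.1 sites) and the retinoic acid receptor hexamers AGGTCA or AGTTCA or GGGTCA or GGTTCA, each on either strand. By distance from the 3′ end, CDKN2D and the inner starts of CCND3 fall under the strongest peaks and CDKN1A, CDKN1B and CDKN2C under weaker ones, and CDKN2B stands for the locus without a peak.
CDKN2D, chr19:10568980-10569229, minus strand: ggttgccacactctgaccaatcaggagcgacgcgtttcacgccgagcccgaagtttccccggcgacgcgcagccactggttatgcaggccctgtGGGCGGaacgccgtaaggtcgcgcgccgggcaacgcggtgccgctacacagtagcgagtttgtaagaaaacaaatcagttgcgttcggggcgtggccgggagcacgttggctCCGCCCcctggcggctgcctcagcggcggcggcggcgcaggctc
CCND3, upstream inner start, chr6:41941809-41942058, minus strand: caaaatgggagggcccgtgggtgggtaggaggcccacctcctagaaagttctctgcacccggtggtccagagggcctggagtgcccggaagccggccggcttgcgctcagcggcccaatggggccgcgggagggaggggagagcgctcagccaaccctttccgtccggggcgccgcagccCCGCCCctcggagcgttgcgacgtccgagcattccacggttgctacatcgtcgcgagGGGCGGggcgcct
CCND3, downstream inner start, chr6:41939206-41939455, minus strand: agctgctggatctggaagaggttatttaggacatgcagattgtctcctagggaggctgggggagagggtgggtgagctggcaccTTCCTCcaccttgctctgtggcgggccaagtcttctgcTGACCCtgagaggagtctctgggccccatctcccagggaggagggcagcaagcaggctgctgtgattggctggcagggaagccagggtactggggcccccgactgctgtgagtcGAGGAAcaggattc
CDKN1A, chr6:36678464-36678713, plus strand: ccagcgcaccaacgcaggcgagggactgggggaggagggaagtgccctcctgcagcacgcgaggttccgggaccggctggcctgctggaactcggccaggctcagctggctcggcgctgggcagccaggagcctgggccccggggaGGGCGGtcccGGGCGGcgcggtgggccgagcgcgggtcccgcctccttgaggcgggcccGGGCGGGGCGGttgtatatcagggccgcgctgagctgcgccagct
CDKN1B, chr12:12717118-12717367, plus strand: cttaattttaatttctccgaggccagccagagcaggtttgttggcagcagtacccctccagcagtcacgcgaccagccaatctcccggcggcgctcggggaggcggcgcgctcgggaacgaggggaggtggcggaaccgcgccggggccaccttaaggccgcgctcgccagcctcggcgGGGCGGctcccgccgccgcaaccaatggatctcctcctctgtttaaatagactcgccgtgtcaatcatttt
CDKN2C, second of 3 starts, chr1:50968456-50968705, plus strand: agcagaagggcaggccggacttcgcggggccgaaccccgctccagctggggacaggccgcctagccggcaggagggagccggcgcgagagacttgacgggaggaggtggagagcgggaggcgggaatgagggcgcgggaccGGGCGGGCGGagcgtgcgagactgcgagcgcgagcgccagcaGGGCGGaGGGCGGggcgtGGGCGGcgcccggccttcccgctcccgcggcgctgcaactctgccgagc
CDKN2B, chr9:22009306-22009555, minus strand: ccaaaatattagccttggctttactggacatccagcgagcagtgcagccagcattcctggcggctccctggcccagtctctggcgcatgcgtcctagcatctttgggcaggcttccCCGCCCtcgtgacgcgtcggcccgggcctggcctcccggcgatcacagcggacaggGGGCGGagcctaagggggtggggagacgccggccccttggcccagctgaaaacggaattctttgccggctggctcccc

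The table held 14 entries for 8 of the 10 genes, and none for CCND1 and CCND2. GC boxes were common in them: 10 of the 14 entries held GGGCGG on either strand, against 42.6% of all 35116 entries of the table. CDKN1A had 4 matches, of which those 45 and 40 bases before the start overlap by a base, and CDKN2C had 5 at its second start, where the outermost pair also overlaps. A receptor hexamer was found in 1 of the 14 entries, against 33.8% of all entries. That match is GGGTCA on the other strand, 128 bases before the downstream inner start of CCND3, in an entry that also holds GAGGAA on each strand, 166 and 14 bases before the start. GAGGAA was found in 3 of the 14 entries, against 23.6% of all, the other holders being both starts of CDKN2A. The member entries were GC-rich, with a median of 67.2% against 58.0% over all entries and 25 CpG dinucleotides against 11. CCAAT was found in 5 of the 14 entries against 32.0% of all, TATAAA in none against 10.7%, and an E2F core (TTCCCGC or TTGGCGC or TTCGCGC or TTGCCGC) in 1, the second start of CDKN2C, against 10.9%. These are matches of letters in a short window; a match is not a bound site, and a window without one says nothing of the factor.

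**Figure D1:**
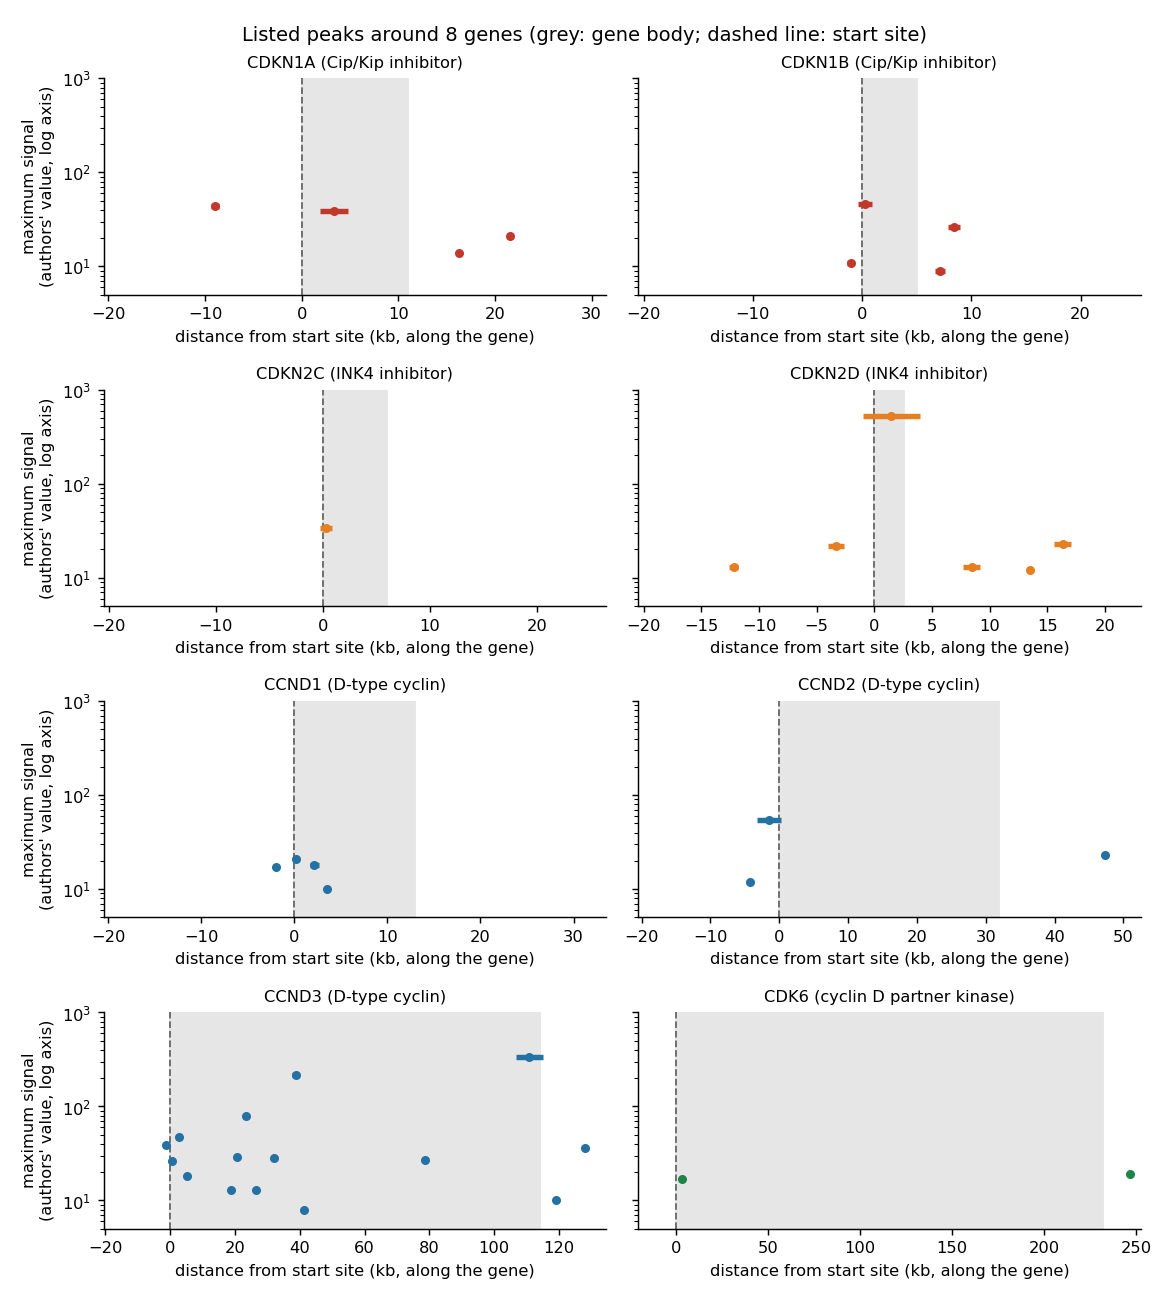
Each panel shows the listed peaks in the window of 1 gene: the horizontal axis is the distance from the start site in kb along the direction of transcription, the vertical axis the authors' maximum signal (log axis), each thick line the extent of a peak and each dot its middle. The CDKN2D gene lies wholly under its peak of maximum 520, CCND3 has its highest peak (339) at the far end of the gene and a run of lower ones near the start, and CDK6 has a peak of 17 near its start and one of 19 beyond its end.

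Of the INK4 genes, CDKN2D carried the strongest peak of all 10 genes. CDKN2D, whose product holds CDK4 and CDK6 inactive, lies in band 19p13.2 at chr19:10677100-10679700 on the minus strand. Its peak at chr19:10675743-10680720 was 4977 bp long, with a total signal of 398272 (rank 5 of 20072) and a maximum of 520 (rank 9). It also ranked 6 by signal per base, at 80.0 against a median of 7.53 over all listed peaks, so its rank did not come from length alone. The peak began 1.02 kb upstream of the start and ended 1.36 kb past the 3′ end, so it covered the whole gene. It held 91.5% of the signal in the CDKN2D window.

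The other peaks of the CDKN2D window were far weaker. They numbered 5, with totals from 3119 to 12582 and maxima from 12 to 23, against list medians of 6478 and 22. The upstream pair lay 2.67 and 11.8 kb before the start, and the others 5.12 to 14.5 kb past the 3′ end. In RefSeq's GRCh38 table the next gene on the 3′ side, KRI1, a ribosome biogenesis gene on the same strand, ends 450 bp from CDKN2D and has its own start there. The strong peak reaches that far, so its signal cannot be assigned to the start of CDKN2D or of KRI1. Of 71261 tiles of the same length as this window (42.6 kb) on the chromosomes, 23 held at least as much summed signal.

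CDKN2C, the INK4 gene of band 1p32.3 at chr1:51434000-51440000, had a single peak and it lay on its start. The peak at chr1:51433770-51434846 ran from 0.230 kb before to 0.846 kb after the start, with a total of 10669, a maximum of 34 and rank 6551, which places it in the upper 32.6% of the list. RefSeq lists 3 starts for CDKN2C on GRCh38, 13.9, 5.93 and 4.39 kb before the 3′ end. The peak extended from 5.15 to 6.23 kb before the 3′ end of the hg19 gene body, a stretch that includes the distance of the second start. No listed peak lay upstream within 20 kb, where the outermost RefSeq start would be and where FAF1 begins in the opposite direction.

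CDKN2A and CDKN2B lay in a long stretch without any listed peak. CDKN2A (chr9:21968000-21995000), which encodes INK4a and the p53 activator ARF from different first exons, and CDKN2B (chr9:22003000-22009000), a target of TGF-beta signalling, share band 9p21.3, and their windows overlap. The nearest peak on the CDKN2A side, at chr9:20683506-20684827 (total 13352), was 1283 kb from the gene body. On the CDKN2B side the next, at chr9:26946923-26947516 (total 4336), was 4938 kb away. The stretch between them measured 6.26 Mb. Of 20049 stretches between neighbouring peaks, 43 (0.214%) were at least as long, with a median of 14.8 kb over all of them, and on chromosome 9 it ranked 3 of 846. Band 9p21.3 had 4 peaks in 5.7 Mb, or 0.702 per Mb, the lowest of the 9 bands that hold these genes, against 56.7 per Mb in 19p13.2. A gene without a listed peak is one where no region passed the authors' peak calling; the signal beneath that threshold, the copies of the locus in these cells and how well reads map there were not tested.

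**Figure D2:**
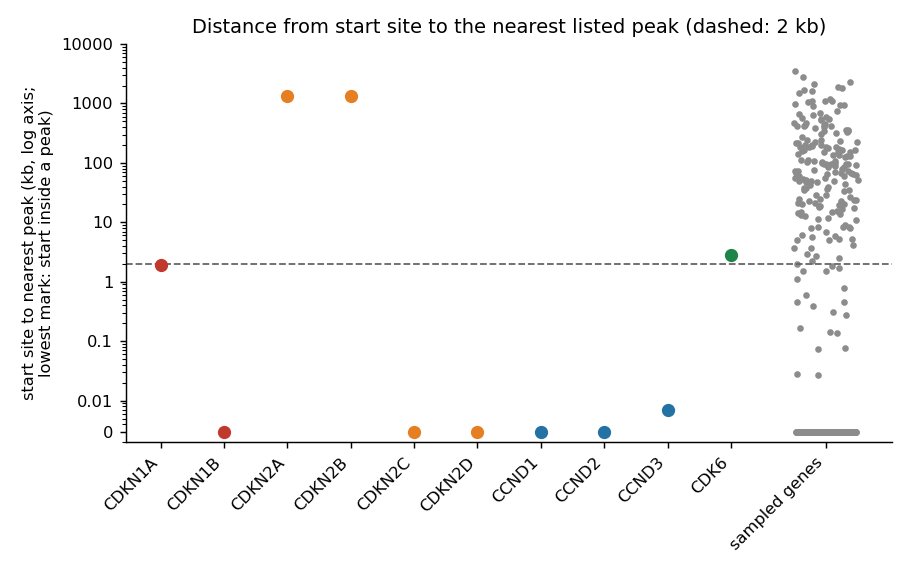
Distance in kb (log axis; the lowest mark stands for a start inside a peak) from the start site to the nearest listed peak, for each of the 10 genes (coloured by role) and for 322 protein-coding genes of the gene-model samples (grey); the dashed line marks 2 kb. CDKN2A and CDKN2B lie 1310 and 1324 kb from a peak, CDK6 2.85 kb, and the other 7 genes at or below the line.

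Of the Cip/Kip genes, CDKN1A had the peak of higher total signal, while the tallest peak of CDKN1B was slightly higher by maximum (46 against 44). By the start in RefSeq's promoter table, each gene had a peak over its start. By the gene body, only the CDKN1B start lay in a peak. CDKN1A encodes p21, the inhibitor through which p53 arrests the cycle and a known retinoic acid target, and lies at chr6:36644000-36655000 in band 6p21.2. Its strongest peak, chr6:36645919-36648835, had a total of 33650 (rank 1675, within the upper 8.34% of the list) over 2916 bp, and a maximum of 39. It lay 1.92 to 4.84 kb inside the gene body, or 6.17 to 9.08 kb before the 3′ end. The start in RefSeq's promoter table for CDKN1A (GRCh38) is 8.62 kb before the 3′ end, within that span. So is that of DINOL, a noncoding RNA gene on the other strand (8.77 kb). RefSeq's CDKN1A gene is 10.9 kb long, however, and its outer end lies outside that peak. The tallest peak of the window was a different one, chr6:36634645-36635448, 8.55 kb upstream, with a maximum of 44 and a total of 9670. The remaining peaks, 5.03 and 10.2 kb past the 3′ end, had totals of 3085 and 6401.

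CDKN1B encodes p27, the inhibitor that accumulates in resting cells, and lies at chr12:12870000-12875000 in band 12p13.1. A peak at chr12:12869642-12870877 spanned its start, with a total of 14021, a maximum of 46 and rank 4968. A weaker one ended 0.704 kb upstream (total 3093, maximum 11). In RefSeq's table GPR19, a receptor gene, lies 122 bp upstream of CDKN1B. The peak over the start reached 0.358 kb upstream, past that distance, so by this RefSeq extent its signal cannot be assigned to either gene. The weaker peak lay wholly beyond that distance, on the GPR19 side. The GPR19 model in the gene-model samples differs, with its start 19519 bp from the nearest listed peak. By that model neither peak lay at the GPR19 start, so the doubt over assignment rests on the RefSeq extent. Past the 3′ end there were 2 more, with totals of 4157 and 11640. That of 11640 spanned 2.88 to 3.94 kb past the end, which includes the distance at which RefSeq places a start of the next gene, APOLD1 (3.55 kb).

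**Figure D3:**
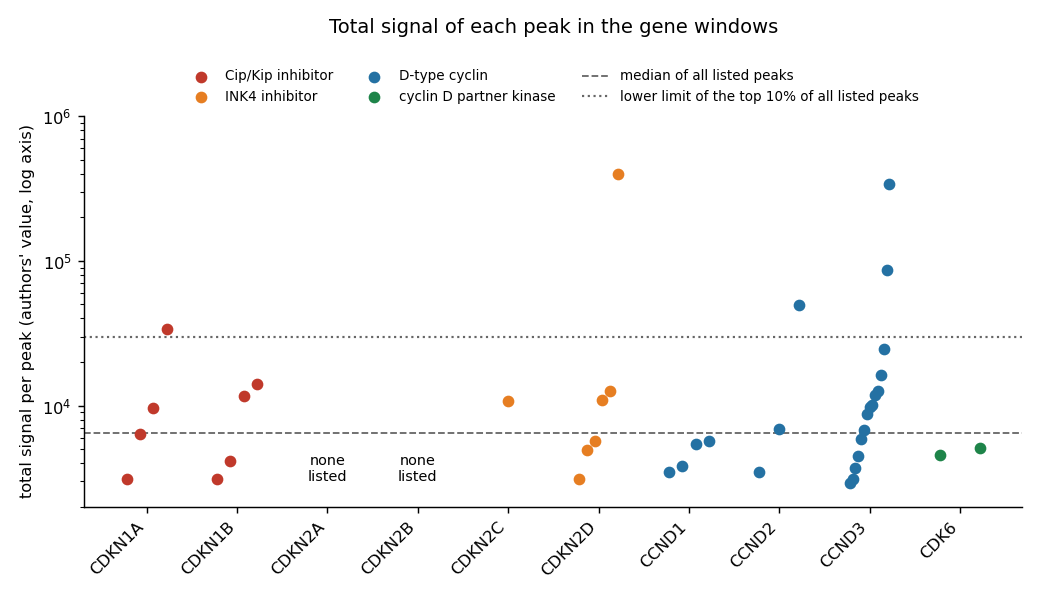
Total signal of every listed peak in the gene windows, as the authors give it (log axis), by gene and coloured by role; the dashed line is the median of all listed peaks and the dotted line the lower limit of their top 10%. Only CDKN1A, CDKN2D, CCND2 and CCND3 have dots above the dotted line, and CCND1 and CDK6 have none above the dashed one.

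The D-cyclin genes differed widely in signal although each had a peak at or next to its start. CCND3, the D-cyclin of many blood cells, had a strongest peak of 337697, CCND2 one of 49763 and CCND1 one of 5679. The CCND3 value was 6.79 times that of CCND2 and 59.5 times that of CCND1. All 3 values come from 1 merged list, so no error can be put on these ratios.

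CCND3 lies at chr6:41903000-42017000 on the minus strand in band 6p21.1, and most of its peaks fell into a strong site at the 3′ part of the gene and a run at the 5′ part. The strongest peak, chr6:41902115-41910184, was 8069 bp long with a maximum of 339 (rank 40) and rank 9 by total. It ran from 7.18 kb before the 3′ end of the gene to 0.885 kb past it. RefSeq's promoter table holds 3 starts for CCND3 on GRCh38, 114 kb, 6.88 kb and 4.27 kb before the 3′ end. The inner 2, whose promoters are printed above, fall at distances that this peak covers. The inner starts make shorter CCND3 transcripts. The next gene on this side, BYSL, ends 1887 bp from CCND3 in RefSeq's table. A further peak lay 13.4 to 14.4 kb past the 3′ end (total 11803, maximum 36), at the distance of the RefSeq starts of BYSL and MED20.

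Inside the long first part of CCND3 a second strong peak stood apart. It lay at chr6:41977293-41979279, 37.7 to 39.7 kb from the outer start, with a total of 85955 (rank 339), a maximum of 218 and a length of 1986 bp, shorter than the 8069 bp of the strongest CCND3 peak but above the list's upper quartile of 1336 bp. Its signal per base, 43.3, exceeded the 41.9 of the strongest CCND3 peak. RefSeq places a start of LOC105375059, a noncoding RNA gene, 75.8 kb before the 3′ end of CCND3, and the peak spanned 74.3 to 76.3 kb. Beyond it, towards the outer start, 9 peaks lay in a stretch of 34.3 kb, with a longest gap of 12.4 kb between them. They had totals of 3702 to 24630 and a sum of 96076. The highest of these, chr6:41992838-41994563, had a maximum of 79. The 3 peaks within 2 kb of the gene-body start had totals of 16141, 10118 and 8789, all above the list median. RefSeq's CCND3 gene is 115.1 kb long on GRCh38, so its 5′ end lies beyond its outermost promoter-table start. TAF8, a subunit gene of the general transcription factor TFIID, lies 489 bp beyond that end. The peak of 8789 lay upstream of the gene body, 114.9 to 115.6 kb before the 3′ end, and reaches about that distance. Its signal therefore cannot be assigned to CCND3 or TAF8. Between the strongest and the second strongest peak the gene was nearly empty, with gaps of 28.0 and 36.4 kb around a peak of total 6808 and a weak one of 2932.

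CCND2 lies at chr12:4383000-4415000 in band 12p13.32. Its strongest peak, chr12:4379762-4383196, covered the 3.24 kb before the start and ended 0.196 kb after it. With a total of 49763 it ranked 936, within the upper 4.66% of the list, and its maximum was 55. A weak peak of 3468 lay 3.76 kb upstream, and one of 6875 lay 14.9 kb past the 3′ end. RefSeq places the start of TIGAR, a p53 target gene, 15.9 kb past that end, 0.196 kb beyond that peak. Gene ends are known to the kb, so whether this start lies inside or outside the peak cannot be told. No peak was listed in the rest of the 32 kb gene body.

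CCND1, the D-cyclin joined to the immunoglobulin locus in mantle cell lymphoma, had 4 weak peaks close together around its start. They lay within 6.09 kb of chromosome 11 (gene body chr11:69456000-69469000, band 11q13.3), with totals of 3821, 5401, 5679 and 3470 along the gene. The second covered the start. All 4 lay below the list median of 6478, and their maxima were 17, 21, 18 and 10. With peaks less than 1 kb apart joined, the last 2 become 1.

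CDK6, the kinase partner of the D-cyclins in most blood cells, had the lowest summed signal of the genes with a peak. Its gene body, chr7:92234000-92466000 in band 7q21.2, is the longest of the 10 at 232 kb. One peak, chr7:92462397-92463155, lay 2.85 to 3.60 kb inside the gene, with a total of 4570 and a maximum of 17. The inner of 2 RefSeq starts is 229.0 kb before the 3′ end on GRCh38, and the peak spanned 228.4 to 229.2 kb, so it is within reach of that start given that the gene ends are known to the kb. The other peak lay 14.2 kb past the 3′ end (total 5126, maximum 19), at the distance of the FAM133B starts. Of 11154 tiles of the same length as its window, 37.4% held a peak and 26.9% held at least as much summed signal. Most such tiles thus held less signal than CDK6.

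**Figure D4:**
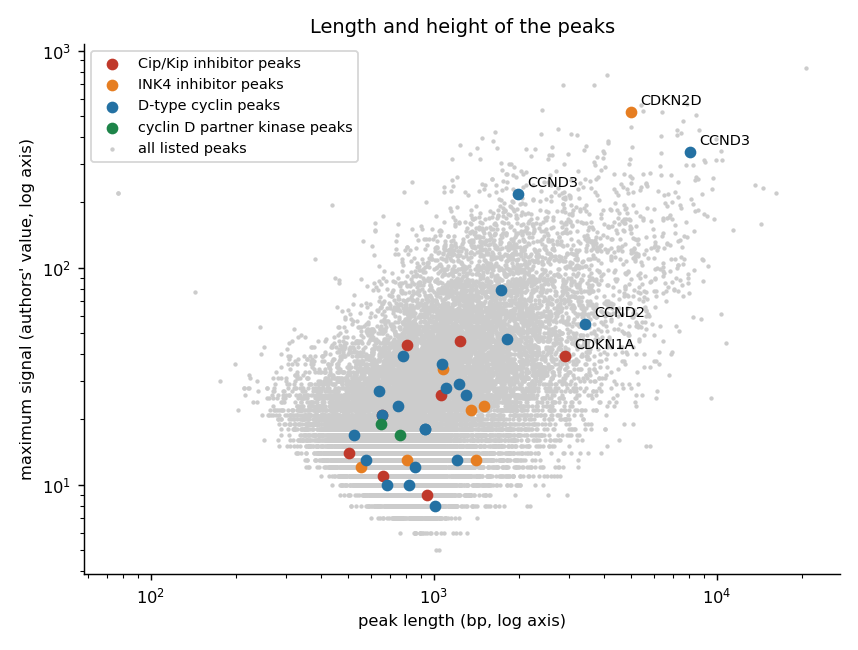
Length in bp (horizontal, log axis) and the authors' maximum signal (vertical, log axis) of the peaks of the 10 genes, coloured by role, and of all listed peaks in grey; names mark the 5 peaks in the top 10% by total signal. The CDKN2D and CCND3 peaks lie at the upper right, and the second CCND3 peak is tall at 1986 bp. Those of CCND2 and CDKN1A are long and lower than these, with maxima of 55 and 39 against a list median of 22.

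Most peaks at these genes were of common size. The median total was 6808 over the 39 peaks and 6478 over the list, the median length 951 bp and 893 bp, and the median maximum 22 in both. Above the list median stood 20 of the 39, and below it 19. In the top 10% by total signal there were 5 of 39, or 12.8%, against 10.0% of all listed peaks, and in the top 1% there were 2, or 5.13%, against 0.996%. A count of 5 is near the share in the list. The peaks at the CDKN1A and CCND2 starts were long and less dense than the strongest CDKN2D and CCND3 peaks. They had 11.5 and 14.5 units per base, both above the list's upper quartile of 11.3. By signal per base only the CDKN2D peak and the 2 strongest of CCND3 were in the top 10%.

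Counted from the start of each gene body, peaks at starts were as many as peaks farther inside the genes. A peak lay within 2 kb of the start in 7 of the 10 genes, against 45.3% of 322 protein-coding genes in hg19 gene-model samples of software packages. It was found in both Cip/Kip genes, all 3 D-cyclins and 2 of the 4 INK4 genes, and the nearest peak of CDK6 lay 2.85 kb from its start. For CDKN1A the distance was 1.92 kb, just inside it. By place, 12 of the 39 peaks lay at a start, 4 farther upstream, 12 in the gene body and 11 past the 3′ end. Most of the body peaks were in CCND3, and the rest were in CCND1 and CDK6. The equal counts do not mean equal density, since gene bodies run to 232 kb and a start zone only to 2 kb on each side. The starts held 48.0% of the signal, most of it from CDKN2D, and the gene bodies 43.2%, nearly all of it from CCND3. That CDKN2D peak covers the whole gene and the distance of the KRI1 start, so the start share is not signal of CDKN2D's start alone. That body share is not signal away from all starts. The strongest CCND3 peak covers the distances of the inner 2 RefSeq starts of CCND3, and the second strongest that of LOC105375059.

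By the window of 20 kb, 8 of the 10 genes had a peak, against 65.2% of the 322 sampled genes and 15.7% of 50 kb tiles of the chromosomes. The median was 3.5 peaks per gene with a summed signal of 25641, against 1 peak and 7153 for the sampled genes, whose windows were longer (median 73.3 kb against 52 kb). At least as much signal as CDKN2D, and likewise CCND3, was found at 2 sampled genes, ADAM8 and TRIM40. The model of TRIM40 spans 28.8 Mb with 267 peaks, far more than a single gene, and without it the count was 1 for each. With it kept, for CCND2 this was 11.2% of them, for CDKN1A 13.0%, for CDKN1B 19.3%, for CCND1 31.4%, for CDKN2C 42.5% and for CDK6 44.7%. The samples are software examples and no random draw of genes. The farthest peak inside the 20 kb limit was that of CCND2 14.9 kb past the gene (total 6875). The nearest outside it lay 21.0 kb past CCND1 (total 2873).

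**Figure D5:**
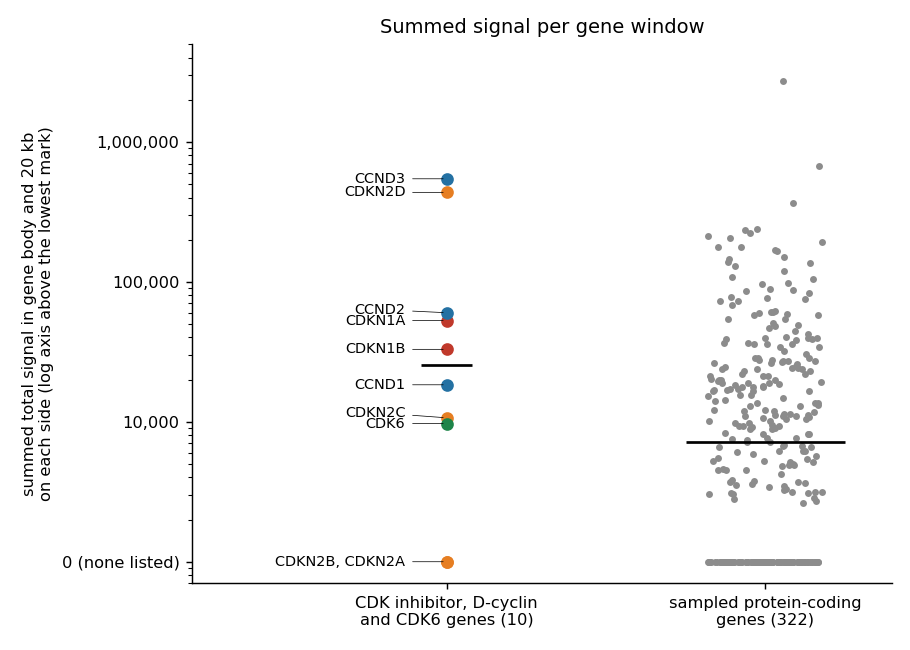
Summed total signal (authors' values; log axis above the lowest mark, which stands for no listed peak) in the gene body and 20 kb on each side, for the 10 genes at left and 322 sampled protein-coding genes at right; black lines are medians. CCND3 and CDKN2D stand well above the other 8 genes, the median is 25641 for the 10 genes and 7153 for the sampled ones, and CDKN2A and CDKN2B are at the lowest mark; the highest grey point is TRIM40, whose model spans 28.8 Mb.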

How the data were processed

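NB4 cells were profiled by CUT&Tag in 2 replicates of 1 group, per the labels. The authors deposited 1 merged peak list with a total and a maximum signal per peak. The submitters' processing notes name Trimmomatic, Bowtie2, SAMtools, bedtools and SEACR with the build hg19; not given in the sources used here: versions, threshold, control track, scaling and how replicates were merged. The deposited column headed width is read as SEACR's total signal, since it exceeds end minus start in every row and never exceeds length times the maximum. Depth is unknown.

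Gene bodies on hg19 were given to the kb (CDKN2D to 0.1 kb), so distances from them are good to about 0.5 kb. A peak counted with 1 bp of overlap; starts may count from 0. No hg19 annotation was used, so RefSeq starts (GRCh38.p14) were compared only by distance from the gene's 3′ end within each build, with no coordinates converted. Background genes were the 322 protein-coding ones in the samples of pyranges 0.1.4 and GenomicFeatures 1.54.1. The pyranges sample names no build: 146 of the 322 starts had a peak within 2 kb, against 27 and 23 when the starts were moved by 100 kb to the left and right. Chromosome lengths came from GenomeInfoDb 1.38.1, bands from circlize 0.4.16. Of 28 further cell cycle genes listed, 0 had an hg19 model here, so they were not analysed. All 10 genes are named. The genes and lists were chosen with earlier results of these data known. Overlap and distance functions were tested on simulated peaks.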

Additional observations from a re-analysis of the deposited data

How the results depend on the processing

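Having a peak did not depend on the window: 8 genes had one with windows of 0, 5 or 50 kb and with 0.5 of the peak required inside. It depended on peak strength, with 5 genes left for peaks in the top 25% and 4 for the top 10%. The number of peaks was 39, and 21 without flanks, 20 at or above the median total, 8 in the top 25% and 5 in the top 10%. Genes with a start peak were 7, and 3 with peaks of the top 10%; RefSeq starts, an alternative chosen after seeing the data, gave 6 of the 8 genes with an entry, against 5 of these 8 by the gene bodies, with CDK6 added; with CCND1 and CCND2, which have no entry, kept at their gene-body starts, that makes 8. Leaving out gene models over 2.5 Mb, also chosen after seeing the data, removed TRIM40 and left 1 sampled gene in place of 2 with at least the signal of CDKN2D, and 1 in place of 2 for CCND3. By signal per bp, 3 in place of 5 peaks were in the top 10%, and in 5 of 8 genes the strongest peak was the same; CDKN1A, CCND1 and CCND3 changed. Of 31 alternatives, 20 stayed within 1.5 times the reported count, and CDKN2A and CDKN2B had no peak in any that changed the window or the peaks. No paired analysis was possible because both replicates form 1 group in 1 merged list, and for the same reason no replicate could be left out. The unknown depth limits what a gene without a peak can show.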

Other observations

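Peaks also stood between 20 and 50 kb from the genes, where 8 more were listed, 5 of them around CDKN2D. The strongest of these lay at 33.4 kb upstream of CDKN2D, with a total of 43952, a maximum of 57 and rank 1142. Around CCND3 a single further peak lay 39.0 kb past the 3′ end, with a total of 29819, a maximum of 96 and rank 1990. CCND1 and CCND2 had 1 each, with totals of 2873 and 3829. None was listed in this range for CDKN1A, CDKN1B, CDKN2A, CDKN2B, CDKN2C or CDK6. Upstream of the CDK6 peak near the start no peak was listed for 1.82 Mb, a stretch that 343 of the 20049 stretches between neighbouring peaks (1.71%) equalled or exceeded in length.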
